A study of Rattus norvegicus with 6 samples.

Results

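Striatal and ganglionic eminence transcription factors are the regulators that specify GABA-using neurons of the ventral forebrain. The set held 10 genes: the homeobox genes Dlx1, Dlx2, Dlx5, Dlx6, Isl1 and Meis2, the forkhead gene Foxp1, Ebf1, the zinc finger gene Bcl11b and the retinoic acid receptor gene Rarb. A gene counted as measured if the transcript accession of an array probe matched it in RefSeq. By this rule 6 of the 10 were measured, each by 1 of the array's 30367 probes and out of 15443 genes with a symbol: Dlx1, Dlx5, Foxp1, Isl1, Ebf1 and Rarb. Dlx2, Dlx6, Meis2 and Bcl11b were not analysed here. Dlx1 lies beside Dlx2 in the genome and Dlx5 beside Dlx6, so that 1 gene of each Dlx pair was measured.

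Total RNA of rat brain was labelled with a single dye and measured on 6 arrays. The sham group held 3 arrays of brain from rats given a sham operation, and the ICH group 3 arrays of brain labelled peripheral, from rats with an intracerebral hemorrhage (bleeding inside the brain). Every sample carries the age label day 1, with no word on what is counted, and the design text speaks of transfected replicates, which no sample label does. The comparison sets brain tissue labelled peripheral, taken here to mean around the hematoma, against brain tissue of a sham operation. The labels do not say that the same site was taken in both groups. Strain, sex, the way the bleed was made and the region dissected are not given in the sources used here. The arrays of a group are labelled as biological replicates. The p-values set a difference against the spread between these arrays, with the variance of each row moderated by limma over all rows.

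In the embryo, Dlx1 and Dlx2 act in the ganglionic eminences, the ventral germinal zones of the forebrain, and switch on Dlx5 and Dlx6, and together these factors direct the GABA-using fate. Foxp1, Isl1, Ebf1, Bcl11b, Meis2 and Rarb then act in the lateral eminence and the striatum as its projection neurons mature, and Isl1 also in the cholinergic neurons of the basal forebrain and striatum. Several of them stay active in the adult striatum, and outside it Isl1 is known in the hypothalamus and Ebf1 in vessel mural cells and B cells.

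The RefSeq promoter table (build GRCr8) held 5 of the measured genes: Dlx1, Foxp1, Isl1, Ebf1 and Rarb, each as a window of 300 bases, 250 before the transcript start and 50 from it on. For Dlx1 and Isl1 this is the outermost start of the annotated gene. For Foxp1, Ebf1 and Rarb it lies inside the annotated gene, so the window is not at the outermost start. The windows were searched on both strands for motifs of the factor families in the set and are shown because all the measured genes differed in 1 direction. The 3 windows with a match are shown 5′ to 3′ on the strand of the gene, with the match in capitals.
Rarb, chr15:11336142-11336441, plus strand: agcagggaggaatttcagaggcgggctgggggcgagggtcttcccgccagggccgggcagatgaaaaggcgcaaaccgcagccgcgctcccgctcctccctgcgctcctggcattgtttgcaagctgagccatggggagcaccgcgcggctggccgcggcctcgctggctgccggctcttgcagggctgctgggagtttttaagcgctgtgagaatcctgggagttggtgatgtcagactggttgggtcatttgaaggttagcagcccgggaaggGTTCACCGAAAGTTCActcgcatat
Isl1, chr2:49823393-49823692, minus strand: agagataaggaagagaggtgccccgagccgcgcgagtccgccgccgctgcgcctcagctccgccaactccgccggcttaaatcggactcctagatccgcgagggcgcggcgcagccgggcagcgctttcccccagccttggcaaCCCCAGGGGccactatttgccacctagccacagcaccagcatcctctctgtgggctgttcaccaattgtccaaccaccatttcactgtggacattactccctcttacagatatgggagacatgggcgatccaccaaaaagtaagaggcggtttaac
Foxp1, chr4:133353231-133353530, minus strand: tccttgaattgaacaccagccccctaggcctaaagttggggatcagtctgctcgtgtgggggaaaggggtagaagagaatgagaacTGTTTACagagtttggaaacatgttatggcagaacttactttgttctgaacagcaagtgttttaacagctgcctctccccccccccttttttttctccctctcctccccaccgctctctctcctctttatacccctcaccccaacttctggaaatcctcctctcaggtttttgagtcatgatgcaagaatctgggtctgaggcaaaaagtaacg
The Rarb window held a direct repeat of the kind that retinoic acid receptors bind, starting at base 26 of the transcript, and 0.418% of all 33469 promoters in the table hold this pattern. The Isl1 window held a pair of overlapping matches to the Ebf core CCCNNGGG, at −106 and −105 relative to the start, a pattern in 12.4% of promoters. The Foxp1 window held the forkhead core TGTTTAC at −164 (3.78% of promoters). None of the 5 windows held the homeodomain core TAATTA (5.36% of promoters) or the Meis core TGACAG (19% of promoters). A match describes letters only, and no binding was measured.

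All 6 measured factors were lower in ICH, and none passed the test over all genes. Their median log2 difference, ICH minus sham, was −0.56, where the median of the 22179 rows tested (1 row per gene symbol or unnamed probe) was −0.04 and 54.1% of rows were lower. At an unadjusted p under 0.05, limma placed 4 of the 6 (Dlx1, Dlx5, Ebf1 and Rarb) among the lower rows, with 8.56% of all rows there and 6.16% among the higher ones. For Dlx1, Dlx5 and Ebf1 all 3 ICH values lay below all 3 sham values, as in 16.5% of all rows. Dlx5, Isl1 and Rarb differed by −0.5 or lower, as did 12.9% of all rows. After Benjamini-Hochberg adjustment limma called 0 of the 6 and 0 of all rows (0%) at 0.05. All 6 probes were well above background on all 6 arrays, so the filter on dim probes chose none of them. The tissue is bulk, and fewer cells of a type, less RNA per cell and a different site of dissection cannot be told apart.

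**Figure D1:**
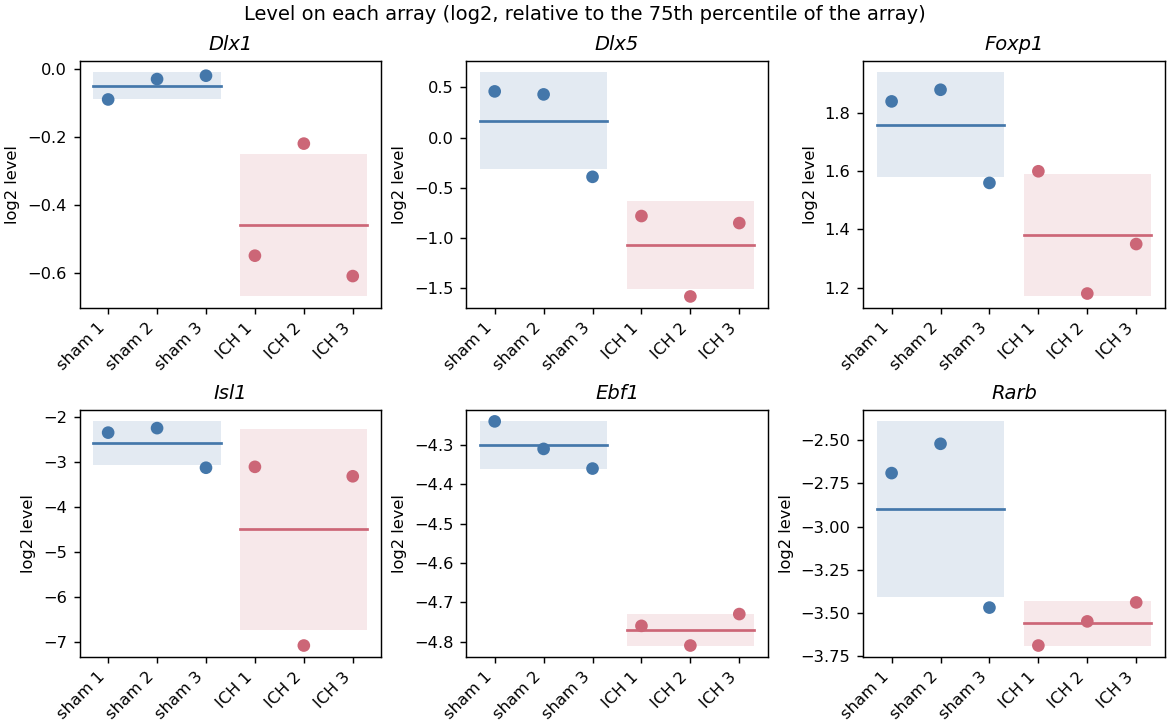
Level of each of the 6 measured factors (y axis, log2 relative to the 75th percentile of the array) on the 3 sham arrays (blue) and the 3 ICH arrays (red), where lines are group means, bands 1 SD and each panel has its own scale. For Dlx1, Dlx5 and Ebf1 the groups do not overlap, for Foxp1, Isl1 and Rarb sham 3 lies within or beside the ICH values, and Isl1 on ICH 2 stands at −7.08.

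Arrays and scaling set limits that touch all of these values. The share of spots well above background ran from 81.8% to 85.4%, with 0 spots saturated, and precision rests on 3 arrays a group. The median SD of a row was 0.14 among sham and 0.31 among ICH arrays. Higher rows made up 41.8% of those with an unadjusted p under 0.05, against 27% with each array centred on its median and 97.5% with centring on spike-in probes, which moved the median of all rows to 0.43. With spike-in centring Dlx1, Foxp1 and Ebf1 stood at 0.06, 0.08 and 0.01, that is above sham but below the typical gene, while Dlx5, Isl1 and Rarb stayed below sham at −0.77, −1.46 and −0.20. All directions given here are therefore relative to the typical gene. Markers checked for the tissue were well above background on every array: 7 of 7 tested for neurons in general, 7 of 7 for astrocytes, 7 of 7 for oligodendrocytes and 19 of 19 effector genes of striatal projection neurons.

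Dlx5, a homeobox factor that acts downstream of Dlx1 and Dlx2, had the largest difference of the 3 factors whose groups did not overlap. Its log2 level was 0.46, 0.43 and −0.39 in sham 1 to 3 and −0.78, −1.58 and −0.85 in ICH 1 to 3. All ICH arrays lay below all sham arrays, ICH 2 was lowest, and sham 3 lay nearer to ICH 1 than to the other sham arrays. The mean was 0.17 ± 0.48 (SD, n = 3) in sham and −1.07 ± 0.44 (SD, n = 3) in ICH. The difference of −1.23 ± 0.33 (SE), or 2.35-fold lower, had a 95% interval from −2.03 to −0.44 (limma, unadjusted p = 0.0087, adjusted p = 0.301). Only 1.02% of all rows had a lower difference. The probe was printed in duplicate, and its spots differed by at most 0.14 on any array. With 1 array left out in turn the difference ran from −1.51 (without sham 3) to −0.98 (without ICH 2), with an unadjusted p under 0.05 in all 6 fits, and with array quality weights it was −0.82 (limma, unadjusted p = 0.0759).

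Dlx1, which with Dlx2 starts the GABA-using programme in the eminences and persists in some adult interneurons, differed less but varied little among sham arrays. Its level was −0.09, −0.03 and −0.02 in sham 1 to 3 and −0.55, −0.22 and −0.61 in ICH 1 to 3. The groups did not overlap, ICH 2 was the ICH array closest to sham, and sham 3 was not low here. The difference was −0.41 ± 0.15 (SE), 1.33-fold lower, with a 95% interval from −0.78 to −0.05 (limma, unadjusted p = 0.0327, adjusted p = 0.316). Without ICH 2 it was −0.53 (unadjusted p = 0.0027 in that limma fit), and with any other array left out the unadjusted p was above 0.05, at differences from −0.43 to −0.34.

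Foxp1, a forkhead repressor that striatal projection neurons keep in adult life, was at 1.84, 1.88 and 1.56 in sham 1 to 3. In ICH 1 to 3 it was at 1.60, 1.18 and 1.35. Sham 3 lay just below ICH 1, so the groups overlapped. The difference was −0.38 ± 0.17 (SE), with a 95% interval from −0.80 to 0.03 (limma, unadjusted p = 0.0633, adjusted p = 0.359), and it was −0.23 with quantile normalization. The duplicate spots differed by at most 0.10 on any array.

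Isl1, a LIM-homeobox factor of striatonigral and cholinergic neurons, had the lowest mean difference of the 6, carried mostly by 1 array. Its level was −2.35, −2.25 and −3.13 in sham 1 to 3 and −3.11, −7.08 and −3.32 in ICH 1 to 3. ICH 2 stood far below the other 5 arrays, while ICH 1 and ICH 3 lay beside sham 3. In processed signal units the probe read 49.1 on ICH 2 and 656 to 1270 on the others, and both spots on ICH 2 were marked well above background, at 47.7 and 50.6. The difference was −1.93 ± 1.07 (SE), with a 95% interval from −4.54 to 0.69 (limma, unadjusted p = 0.122, adjusted p = 0.424). Without ICH 2 it was −0.64, or 1.56-fold lower, and without sham 3, ICH 1 or ICH 3 it was −2.20, −2.63 or −2.52. Normexp background correction gave −1.43.

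Ebf1, a helix-loop-helix factor needed for striatonigral neurons to mature, lay close together within each group. Its level was −4.24, −4.31 and −4.36 in sham 1 to 3 and −4.76, −4.81 and −4.73 in ICH 1 to 3. The groups did not overlap, and the SD was 0.06 in sham and 0.04 in ICH. The difference was −0.46 ± 0.12 (SE), 1.38-fold lower, with a 95% interval from −0.74 to −0.18 (limma, unadjusted p = 0.00712, adjusted p = 0.301). It ran from −0.49 to −0.43 with 1 array left out, with an unadjusted p under 0.05 in all 6 fits. With an intensity trend and robust variance the SE rose to 0.19 (limma, unadjusted p = 0.0436). The spread within ICH is smaller than that between spots: on ICH 2 the duplicate spots of Ebf1 read 325 and 173 in processed signal, a gap of 0.91 on the log2 scale. Among probes printed in duplicate at a mean signal of 150 to 500, the median gap was 0.0869 and 0.808% of readings had a gap of 0.9 or more. With the first spot of every probe Ebf1 differed by −0.38 (limma, unadjusted p = 0.0656), and with the last spot by −0.55 (unadjusted p = 0.0267), with the groups still apart in each.

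**Figure D2:**
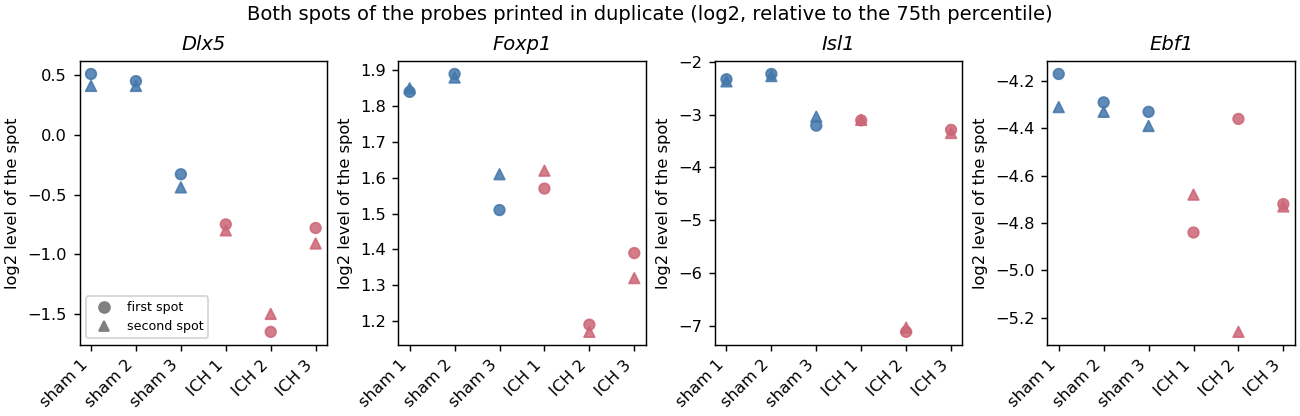
Each spot of the 4 factors printed in duplicate (y axis, log2 level of the spot relative to the 75th percentile of the array; circles first spot, triangles second spot) on sham (blue) and ICH (red) arrays. The spots of Dlx5, Foxp1 and Isl1 lie within 0.17 of each other on every array, while those of Ebf1 on ICH 2 lie 0.91 apart.

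Rarb encodes a receptor for retinoic acid that is strong in the striatum, and its gene is itself a retinoic acid target. Its level was −2.69, −2.52 and −3.47 in sham 1 to 3 and −3.69, −3.55 and −3.44 in ICH 1 to 3. The ICH arrays lay close together, and sham 3 fell among them, so the groups overlapped. The difference was −0.66 ± 0.27 (SE), 1.59-fold lower, with a 95% interval from −1.32 to −0.01 (limma, unadjusted p = 0.0469, adjusted p = 0.339). It was −0.95 without sham 3 (unadjusted p = 0.00284 in that limma fit), and with any other array left out the unadjusted p was 0.0718 to 0.144, with −0.48 without sham 2. With array quality weights it was −0.44 (limma, unadjusted p = 0.309). Rarb and Dlx1 were measured by a single spot per array.

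In sham 3, Dlx5, Foxp1, Isl1 and Rarb were 0.20 to 0.58 below the sham mean, while Dlx1 was 0.03 above it and Ebf1 0.05 below. The median over the 6 factors, relative to the sham mean, was 0.14, 0.19 and −0.38 in sham 1 to 3 and −0.52, −0.62 and −0.55 in ICH 1 to 3. Sham 3 was the array that overlapped ICH for Foxp1, Isl1 and Rarb, so without it all 6 factors had every ICH value below every sham value. Without ICH 1, 5 did. A smaller group separates more easily, and the share of all rows without overlap was not counted in these fits. The count of factors lower at an unadjusted p under 0.05 was 2 without sham 1, without sham 2 or without ICH 3. The arrays lay on 1 slide, with the sham arrays and ICH 1 in row 1 and ICH 2 and ICH 3 in row 2. Within row 1, ICH 1 differed from the sham mean by −0.51 for Dlx1, −0.94 for Dlx5, −0.46 for Ebf1 and −0.80 for Rarb, each below every sham array, and by −0.16 for Foxp1 and −0.53 for Isl1, neither below sham 3. Row 2 held no sham array, so with the slide row as a block the difference rested on ICH 1 alone, assumed to vary like the other arrays. In that fit Ebf1 alone of the 6 had an unadjusted limma p under 0.05 (difference −0.46, adjusted p = 0.393).

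**Figure D3:**
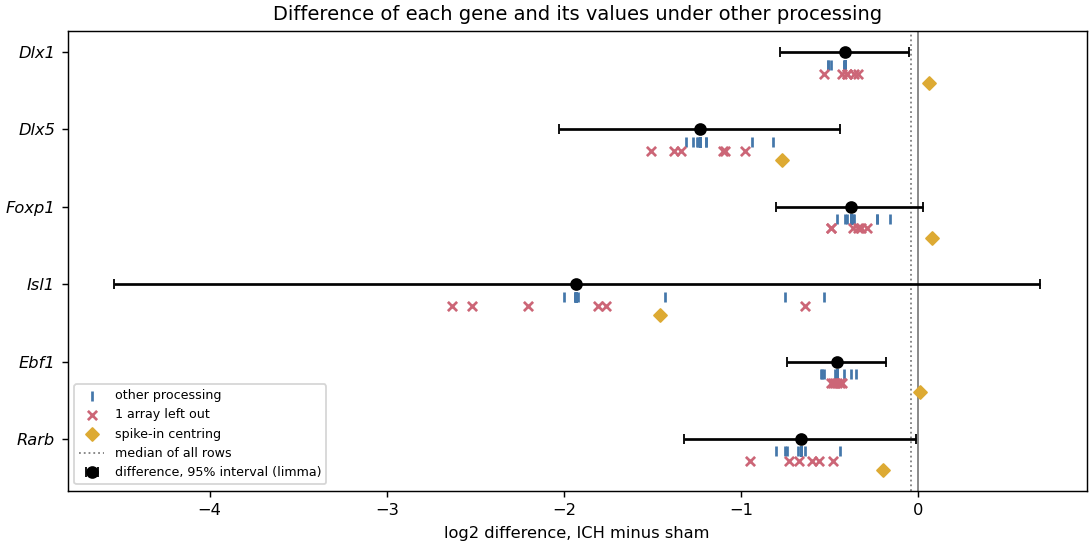
Log2 difference, ICH minus sham (x axis), of each measured factor (rows): black points with 95% intervals from limma, with the values under other processing (blue), with 1 array left out (red crosses) and with spike-in centring (yellow). Under all settings but spike-in centring the 6 differences stay below 0, and Isl1 moves from −1.93 to −0.64 without ICH 2.

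Genes that these factors are known to control or work with were described as lists, by counts. The lists were chosen with earlier results of these data known, so none is independent support. Of the GABA genes, known to lie downstream of the Dlx factors, 3 of 3 were lower, as were 54.1% of all rows. At an unadjusted p under 0.05, 2 of them were lower, as were 8.56% of all rows. A part of the Dlx factors in these levels was not tested. Gad1, which makes GABA, stood at 0.18, −0.04 and −0.14 in sham 1 to 3 and −0.61, −0.91 and −0.34 in ICH 1 to 3 relative to the sham mean, and differed by −0.62 ± 0.19 (SE). Slc32a1, which loads GABA into vesicles, differed by −0.54 ± 0.18 with groups that did not overlap. Gad2, the other GABA-making enzyme, differed by −0.50 ± 0.37 and overlapped, with ICH 1 at 0.17. All 3 had an adjusted p of 0.301 to 0.522 by limma.

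Effector genes of striatal projection neurons, the receptors, enzymes and peptides of the mature cell, were lower in 19 of 19 tested. At an unadjusted p under 0.05, 10 of them were lower, beside 8.56% of all rows, and 0 were called after adjustment. Earlier results of these data already showed this list as lower, so it is no independent support. Its median difference was −0.89, and its median by array, relative to the sham mean, was 0.27, 0.30 and −0.53 in sham 1 to 3 and −0.70, −1.06 and −0.68 in ICH 1 to 3. Sham 3 was the low sham array here as it was for Dlx5, Foxp1, Isl1 and Rarb. Of its 3 brightest genes, the calmodulin regulator Arpp21 differed by −0.64 ± 0.16 (SE), the phosphodiesterase Pde10a by −0.85 ± 0.28 and the dopamine signalling protein Ppp1r1b by −0.79 ± 0.33.

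Of 23 other tested transcription factors of the eminences and striatum, 18 were lower and 5 higher, with a median of −0.36. At an unadjusted p under 0.05, 4 were lower and 1 higher, beside 8.56% and 6.16% of all rows. Among the brightest were the nuclear receptor Nr2f2 of the caudal eminence at −0.13 ± 0.16 (SE) and Pbx3, a homeobox cofactor of Meis proteins, at −0.45 ± 0.24. Among the lower were Nkx2-1 (−1.41), which specifies the medial eminence, Vax1 (−1.54), a ventral forebrain homeobox factor, and Foxp2 (−1.34), a forkhead factor of the basal ganglia. The 1 higher was the nuclear receptor Nr2f1 (0.40), and these genes were named after their values were seen. Lhx6, which marks interneurons of the medial eminence, stood at −0.08 and Sp9 at 0.14, so the list held genes near 0 beside the low ones. Lhx8, which specifies forebrain cholinergic neurons, stood at −1.16, −4.72 and −0.63 in ICH 1 to 3, and ICH 2 was the low array as it was for Isl1.

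Paralogs of the 10 factors differed in both directions. Of 10 tested, 8 were lower, 3 of these at an unadjusted p under 0.05, beside 8.56% of all rows. These 3 were Meis1 (−0.74 ± 0.19, SE), Ebf2 (−0.78 ± 0.21) and Foxp2. Bcl11a, the paralog of Bcl11b and a factor of cortical as well as striatal neurons, was higher by 0.72 ± 0.16, at 0.84, 0.64 and 0.69 in ICH 1 to 3 against −0.22 to 0.22 in sham (limma, unadjusted p = 0.0037, adjusted p = 0.301). The brightest, Meis3, Ebf4 and Meis1, differed by −0.35, −0.57 and −0.74. The other retinoic acid receptor genes, Rara and Rarg, stood at 0.25 and −0.09, so Rarb was the lowest of the 3.

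Other genes of the retinoic acid pathway showed no common direction. Of 15 tested, 10 were lower and 5 higher, with a median of −0.09. Beside 8.56% of all rows, 3 were lower at an unadjusted p under 0.05. These were the retinoic acid binding protein Crabp1 (−0.99 ± 0.29, SE), the degrading enzyme Cyp26b1 (−0.74 ± 0.30) and the synthesis enzyme Aldh1a2 (−0.49 ± 0.19), named after their values were seen. Among the brightest were the receptor partner Rxrb at −0.05 and the synthesis enzyme Aldh1a1 at 0.10. Rxrg, a receptor partner present in the striatum, stood at 0.18, 0.23 and −0.41 in sham 1 to 3 and −0.62, −0.21 and −0.92 in ICH 1 to 3, which overlapped.

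Cholinergic genes were set beside Isl1. Of 7 tested, 6 were lower and 0 had an unadjusted p under 0.05 by limma. Lhx8 and Gbx2 also stand in the list of other eminence factors, and Gbx2 in the thalamic list, so these lists are not separate observations. Among the brightest were Lhx8 (−2.17) and the vesicular transporter Slc18a3 (−0.81), while Chat, the acetylcholine-making enzyme, stood at 0.00. In ICH 1 to 3 the median of the list was −0.46, −2.22 and −0.31, with a range from −0.10 to 0.18 in sham. Its summed level was 0.247 of the sham mean on ICH 2, and 0.696 and 0.810 on ICH 1 and ICH 3. Hypothalamic neuron markers, where Isl1 is also known, had 8 of 9 lower, with a summed level of 0.765 to 1.20 of the sham mean in sham and 0.636, 0.410 and 0.857 in ICH 1 to 3. The part of either cell group in the Isl1 values was not tested.

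**Figure D4:**
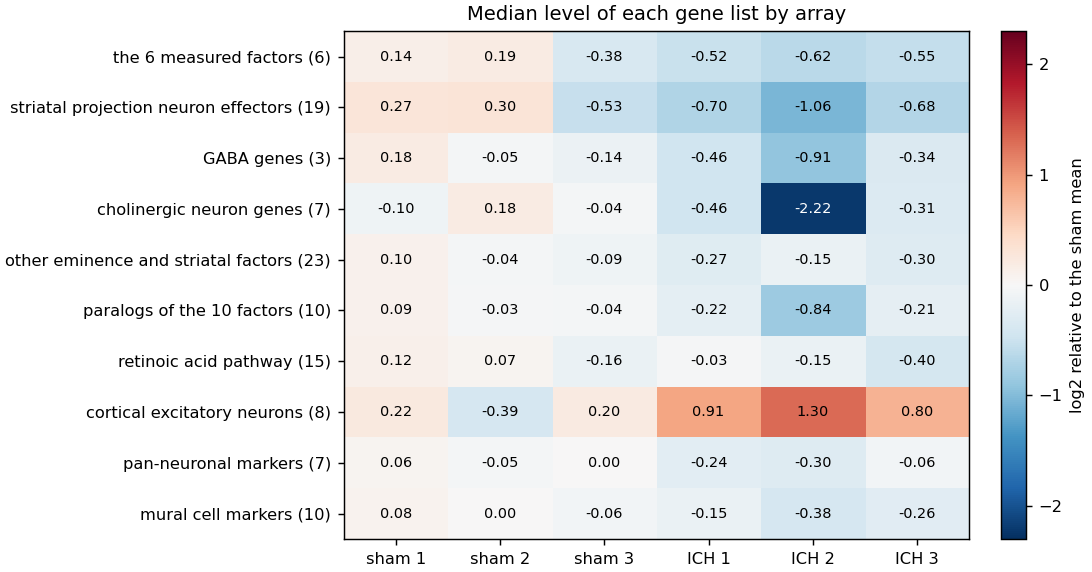
Median log2 level of each gene list (rows, number of genes tested in brackets) on each array (columns), relative to the sham mean of each gene; blue is below and red above sham. The medians of the 6 factors and of the striatal effectors are low on sham 3 and on all ICH arrays. The cholinergic genes stand at −2.22 on ICH 2, and the cortical markers are high on the ICH arrays.

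Markers of other cells were set beside these factors. Over all rows, 8.56% were lower and 6.16% higher at an unadjusted p under 0.05. Cortical excitatory neuron markers were higher in 7 of 8, 5 of them at an unadjusted p under 0.05, with a summed level of 0.721 to 1.24 of the sham mean in sham and 1.72 to 1.97 in ICH. Markers of neurons in general were lower in 5 of 7, with summed levels of 0.954 to 1.03 in sham and 0.818 to 0.966 in ICH. Mural cell markers, set beside Ebf1, were lower in 8 of 10, with summed levels of 0.918 to 1.1 in sham and 0.755 to 0.853 in ICH. At an unadjusted p under 0.05, 2 of them were lower and 1 higher. The higher one was Notch3 (0.73 ± 0.15, SE), while Pdgfrb stood at −0.10 and Kcnj8 at 0.03, all named after their values were seen. T and B cell markers were lower in 6 of 11, with 0.312 to 1.36 in sham and 0.479 to 1.65 in ICH. Markers of neuroblasts, in which Dlx genes stay active, were lower in 3 of 6, with 0.958 to 1.03 in sham and 1.00 to 1.27 in ICH. That sum weighs bright genes most, and the brightest diverged: Cd24 differed by 0.07, Th by 0.88 ± 1.02 (SE) and Igfbpl1 by −1.24 ± 0.36. Th stood at 2.27, −1.57 and 1.93 in ICH 1 to 3. The neuroblast list median was 0.03, −0.71 and −0.04 in ICH 1 to 3, and Dcx was not tested. Thalamic markers ran from 0.667 to 1.18 in sham and 0.610 to 1.16 in ICH (6 of 7 lower). Myeloid markers were higher in 6 of 8, but 0 were higher and 2 lower at an unadjusted p under 0.05 by limma. These 2 were the brightest of the list, Aif1 (−0.36) and Lyz2 (−0.44), each with all ICH values below all sham values. The list medians set ICH 3 apart, at 0.95, 1.27 and −0.55 in ICH 1 to 3 and −0.14 to 0.21 in sham. The monocyte coreceptor gene Cd14 stood at 3.08, 3.75 and −0.26 and the scavenger receptor gene Msr1 at 4.23, 4.55 and −0.54 in these 3 arrays, both named after their values were seen. For the 6 factors ICH 3 lay with the other ICH arrays in the median (−0.55). Oligodendrocyte markers were lower in 7 of 7, with summed levels of 0.907 to 1.05 in sham and 0.952, 0.586 and 0.902 in ICH 1 to 3. Astrocyte markers were lower in 5 of 7, with 0.953 to 1.04 in sham and 0.803 to 0.997 in ICH. Choroid plexus markers were higher in 4 of 6, with 0.473 to 1.66 in sham and 0.783 to 1.46 in ICH. The part of these cells in the levels of the 6 factors was not tested.

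The genes whose levels over the 6 arrays most resembled the mean standardized level of the 6 factors were found by Pearson correlation, as a description. They were the phosphatase subunit gene Ppp1ca (r = 0.994), the potassium channel gene Kcna5 (0.992), Plekhj1 (0.991), Mst1 (0.988) and Smarca1 (0.988). Of 12957 other symbols, 74 had an r of at least 0.95 and 278 of at least 0.9, and all of them share the 6 arrays and their 2 groups. Kcna5 and Mst1 differed by −1.24 and −1.18, close to Dlx5 in size, and the other 3 by −0.22 to −0.18.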

How the data were processed

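The authors deposited spot intensity from Agilent Feature Extraction (11.5.1.1 per the file headers, 10.7 per the submitters' processing notes), with background subtracted and no normalization across arrays. Other columns used are its marks of 0 or 1 per spot, per the file headers. The deposited log2 table exceeds the values used here by a constant of 0.28 to 0.32 per array, which equals the use of a 75th percentile over probe means, and matched within 0.001 after it for 98.5% to 99.3% of probes. This step was worked out from the values.

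Control spots and non-uniform spots (1 to 9 per array) were left out, the 75th percentile of an array was subtracted from its log2 intensity, and spots of a probe were averaged. Probes well above background on at least 3 arrays were kept (at least 0.5 of spots), and the brightest probe stood for a symbol. Accessions were matched to RefSeq (GRCr8), where 18355 of 30367 probes had 1 symbol and 12012 none. ICH and sham were compared by limma (version 3.58.1, R 4.3.3; lmFit, eBayes, 6.12 degrees of freedom, Benjamini-Hochberg over all 22179 rows), tested on simulated data. Alternatives changed background correction, normalization, filter, probe choice, variance model, blocks and arrays. Figures used Python 3.11.15 and matplotlib 3.10.9. All 6 measured factors, the 3 brightest genes of each list and the 5 most alike genes are named by rule, except that some are not reported here, and other names were chosen after their values were seen. The members and lists were chosen with earlier results of these data known. Spike-in centring, array weights and single spots were alternatives added after the data were examined, and normexp used the median spot signal.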

Additional observations from a re-analysis of the deposited data

How the results depend on the processing

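Under the 18 listed alternatives all 6 factors stayed lower in ICH and none passed adjustment over all rows, with adjusted p by limma from 0.162 to 0.914. Spike-in centring, chosen after seeing the data, turned Dlx1 (0.06), Foxp1 (0.08) and Ebf1 (0.01) above sham and gave a median of −0.10 over the 6, 1 factor lower at an unadjusted p under 0.05 and 1 without overlap, beside 5758 rows higher and 150 lower at that p and 37 called. Rows called numbered 3 with normexp and with an intensity trend, 2 with the filter on all 6 arrays and with the last spot of each probe, and 6 with array weights. Median centring, which moved the median of all rows to −0.11, gave 839 rows higher and 5 factors without overlap. Factors lower at an unadjusted p under 0.05 came to 2 with array weights and 1 with a block for slide row, where the difference rests on ICH 1 alone because row 2 held no sham array. With 1 array left out, 0 to 36 rows were called, 683 to 2135 were higher and 663 to 2553 lower at an unadjusted p under 0.05. Of the factors, 2 to 3 were lower at that p and 3 to 6 did not overlap. The share of all rows without overlap was counted for the main processing only, and smaller groups separate more easily. The causes were not tested. The labels share replicate numbers, but same-numbered arrays did not deviate together (r = −0.19, −0.01 and 0.07), and with the replicate number as a block 2 factors had an unadjusted p under 0.05 and 0 rows were called. Isl1 on ICH 2, at a signal of 49.1, is the dimmest value and the one nearest to background.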
